A study of Gallus gallus with 24 samples.

Results

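The genes described here encode the nucleoporins, which build the nuclear pore complex, and the receptors that carry proteins and RNA through it. They were chosen by symbol from the count table of chicken heart and liver: all NUP, IPO, XPO, KPNA, KPNB and TNPO symbols followed by a number, together with *TPR*, *RANBP2*, *AAAS*, *SEH1L*, *SEC13* and *NDC1*. This rule found 49 of the 15051 genes in the table by symbol alone. The set itself was chosen with earlier results of these data known. The libraries came from female broiler chickens sampled in week 5, with 6 libraries for each tissue and treatment and 24 in all. Sal-exposed birds had received the ionophore salinomycin (Sal), a feed additive against coccidia, at 10.5 mg/kg feed from week 4, estimated as a daily 0.9 mg/kg of body weight. Control birds had received a Sal-free diet, and no bird of either group was fed Sal before week 4. The groups are therefore Sal-exposed heart, control heart, Sal-exposed liver and control liver. The labels do not say which heart and liver came from the same bird, and only 1 dose and 1 time point were sampled. Hearts and livers were also homogenised by different methods, so that tissue and homogenisation cannot be told apart in any comparison between organs.

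The nuclear pore complex is a ring-shaped channel that spans the nuclear envelope. Its scaffold consists of outer and inner rings, it is anchored by membrane nucleoporins, and its channel is filled with flexible nucleoporins whose phenylalanine-glycine repeats bind transport receptors. Importins carry cargo into the nucleus and release it when they bind RanGTP, whereas exportins bind their cargo together with RanGTP and release it in the cytoplasm. Scaffold nucleoporins are known as very long-lived proteins in non-dividing cells such as cardiomyocytes and hepatocytes.

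The libraries held 31.4 to 44.5 M counts on genes, and the 49 genes together took between 0.062% and 0.245% of the counts of a library. The hearts expressed the cardiomyocyte markers and the livers the hepatocyte markers: all 12 cardiomyocyte genes were higher in control heart than in control liver, and all 13 rows of hepatocyte genes were lower. Sal-exposed hearts 1 and 4 stood apart by their mitochondrial share of counts, 72.0% and 79.6%, against 38.6% to 47.9% in the control hearts. Control livers 1 and 6 stood apart by fewer detected genes, 13311 and 12355, against 14297 to 14664 in the Sal-exposed livers. Sal-exposed liver 4 had a mitochondrial share of 30.4%, against 6.92% to 10.9% in the other Sal-exposed livers, and the median share was 8.15% in Sal-exposed and 20.1% in control livers. The part of this share in the liver results was not tested. Each main count below was also computed without Sal-exposed hearts 1 and 4 or control livers 1 and 6, and without each library in turn. Levels are given as CPM, the counts of a gene relative to the size of the library, scaled by TMM over the 24 libraries, and are compared between groups but not between genes. The tests are edgeR's quasi-likelihood tests with Benjamini-Hochberg adjusted p-values (p-adj) over all genes tested, and a gene passed at a p-adj of at most 0.05. Each log2FC is followed by its standard error (SE), and n = 6 in every group.

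In the liver, 11 of the 49 genes passed the test between Sal-exposed and control birds, and 9 of them were upregulated. The upregulated genes were *NUP210*, *KPNA5*, *XPO1*, *NUP153*, *NUP155*, *KPNA1*, *IPO8*, *TNPO1* and *NUP205*, and the downregulated genes were *NUP62* and *XPO6*. In the heart none of the 48 genes tested passed, and the lowest p-adj was 0.145. The 11 genes are 22.4% of the 49, whereas 15.4% of all 13587 genes tested in the liver passed. The share that was upregulated was 18.4%, against 7.57% of all genes, and the share that was downregulated was 4.08%, against 7.84%. With the additional cut-off of an absolute log2FC of at least 1, *NUP210*, *KPNA5*, *XPO1* and *NUP153* were DE genes, which is 8.16% of the 49 against 7.01% of all genes. The Sal-exposed and control livers did not overlap in 5 genes (10.2%, against 5.73% of all genes), all higher in the Sal-exposed livers: *NUP210*, *XPO1*, *NUP155*, *TNPO1* and *NUP205*. With DESeq2 the shares were closer, with 24.5% of the 49 genes and 22% of all genes called in the liver. The authors used DESeq2 and corrected for batch effects with surrogate variables (sva). Their settings for sva are not given in the sources used here. With surrogate variables in DESeq2, 3 genes passed here in the liver, 6.12% of the 49 against 6.57% of all genes. Over all genes, DESeq2 called 893 in the liver with surrogate variables and 2995 without. In the heart it called 1965 with them and 656 without. Whether either of these fits matches that of the authors was not tested. The median log2FC in the liver was 0.13 over the 49 genes and −0.01 over all genes tested. Without control livers 1 and 6, 10 genes passed (20.4%, against 12% of all genes). There *KPNA1* and *KPNA5* no longer passed, with p-adj of 0.0576 and 0.0656, and *TNPO3* did.

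**Figure D1:**
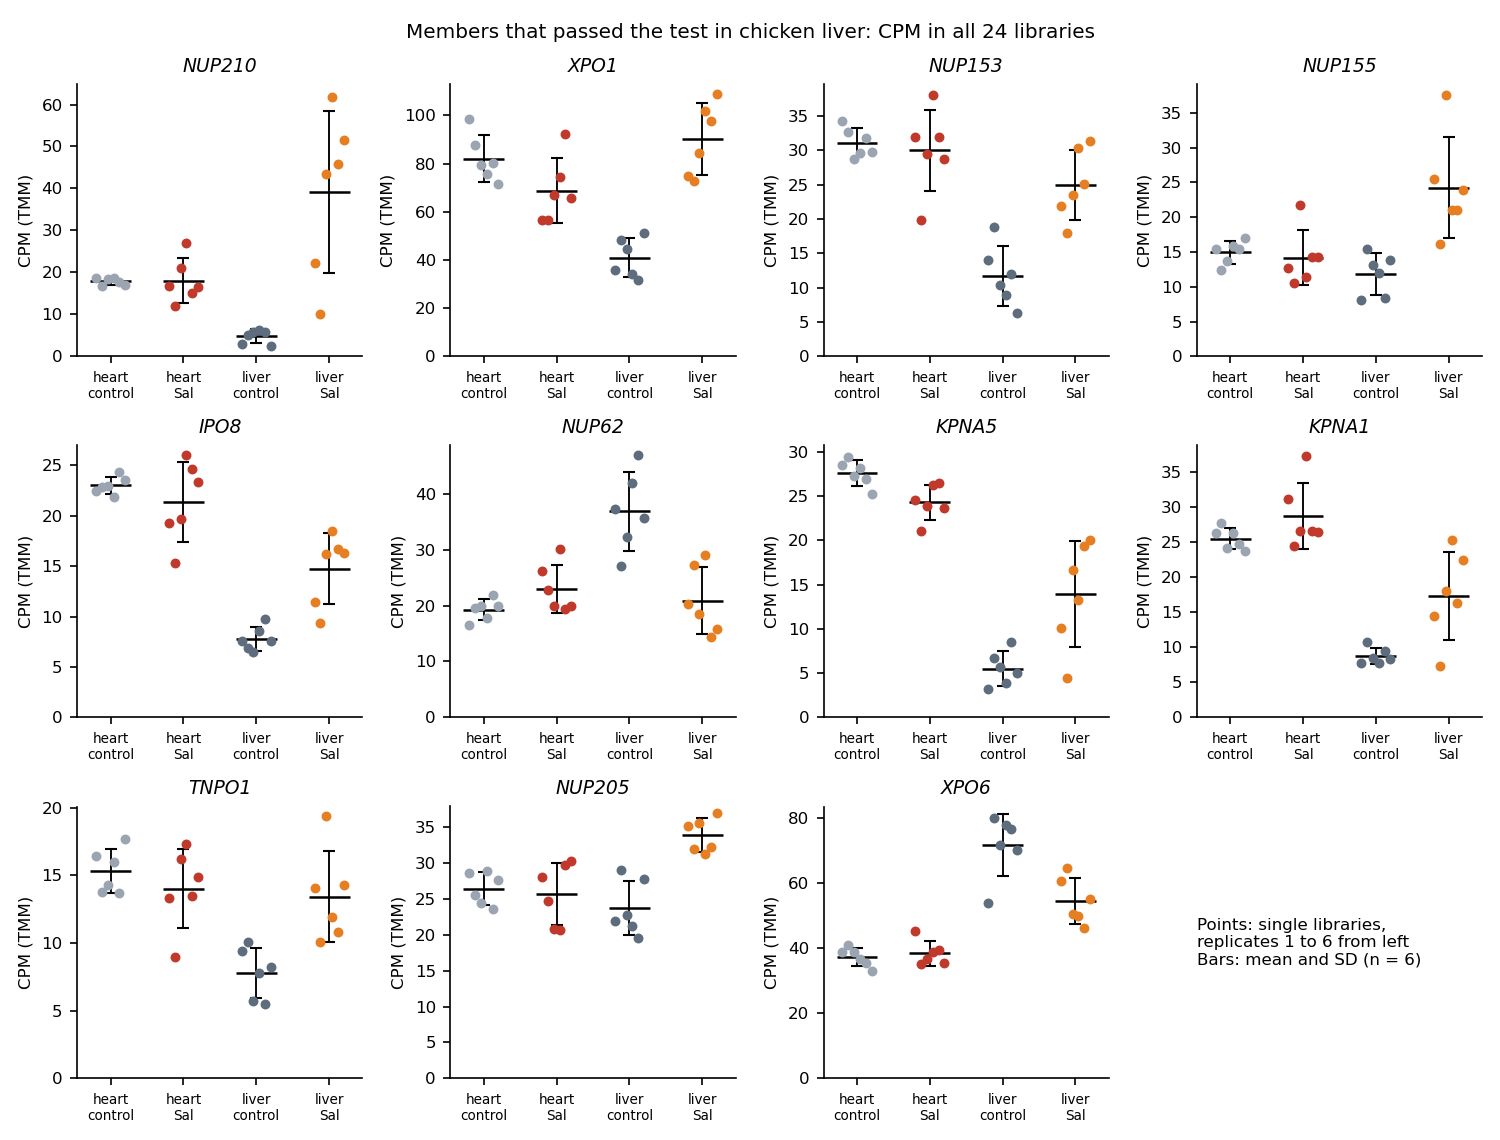
CPM in each of the 24 libraries for the 11 genes that passed the test in liver, with 1 point per library and bars for the mean and SD of 6 libraries. Control livers had the lowest mean of the 4 groups in the 9 upregulated genes, and the highest in *NUP62* and *XPO6*. The 11 genes were picked by their liver values, so that this order follows in part from that choice.

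In the heart, 25 of 13526 genes passed, or 0.185%, so that few genes of any kind were called there by this test. *NUP58* and *SEC13* were the only members with an unadjusted p below 0.05 in heart, whereas 17.2% of all genes were below it. *NUP58*, a nucleoporin of the central channel, lay at 12.0, 14.1 and 17.6 CPM (lowest, median and highest) in the Sal-exposed hearts and at 9.15, 10.1 and 14 CPM in the control hearts. Its log2FC was 0.43 (SE 0.14, p-adj = 0.145), and 3 of 6 Sal-exposed hearts lay above all control hearts. DESeq2 called *NUP58* in the heart where edgeR did not, and called 4.85% of all genes there, against 2.08% of the members. *SEC13* had a log2FC of 0.28 (SE 0.11, p-adj = 0.231), with 5 of 6 Sal-exposed hearts above all controls. The Sal-exposed and control hearts overlapped in every member, while 2.6% of all genes tested showed no overlap. The log2FC of the 48 genes lay between −0.46 and 0.43 in the heart, with a median of −0.01, against −0.02 over all genes. Without Sal-exposed hearts 1 and 4, the number of members that passed was again 0, against 0.232% of all genes.

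**Figure D2:**
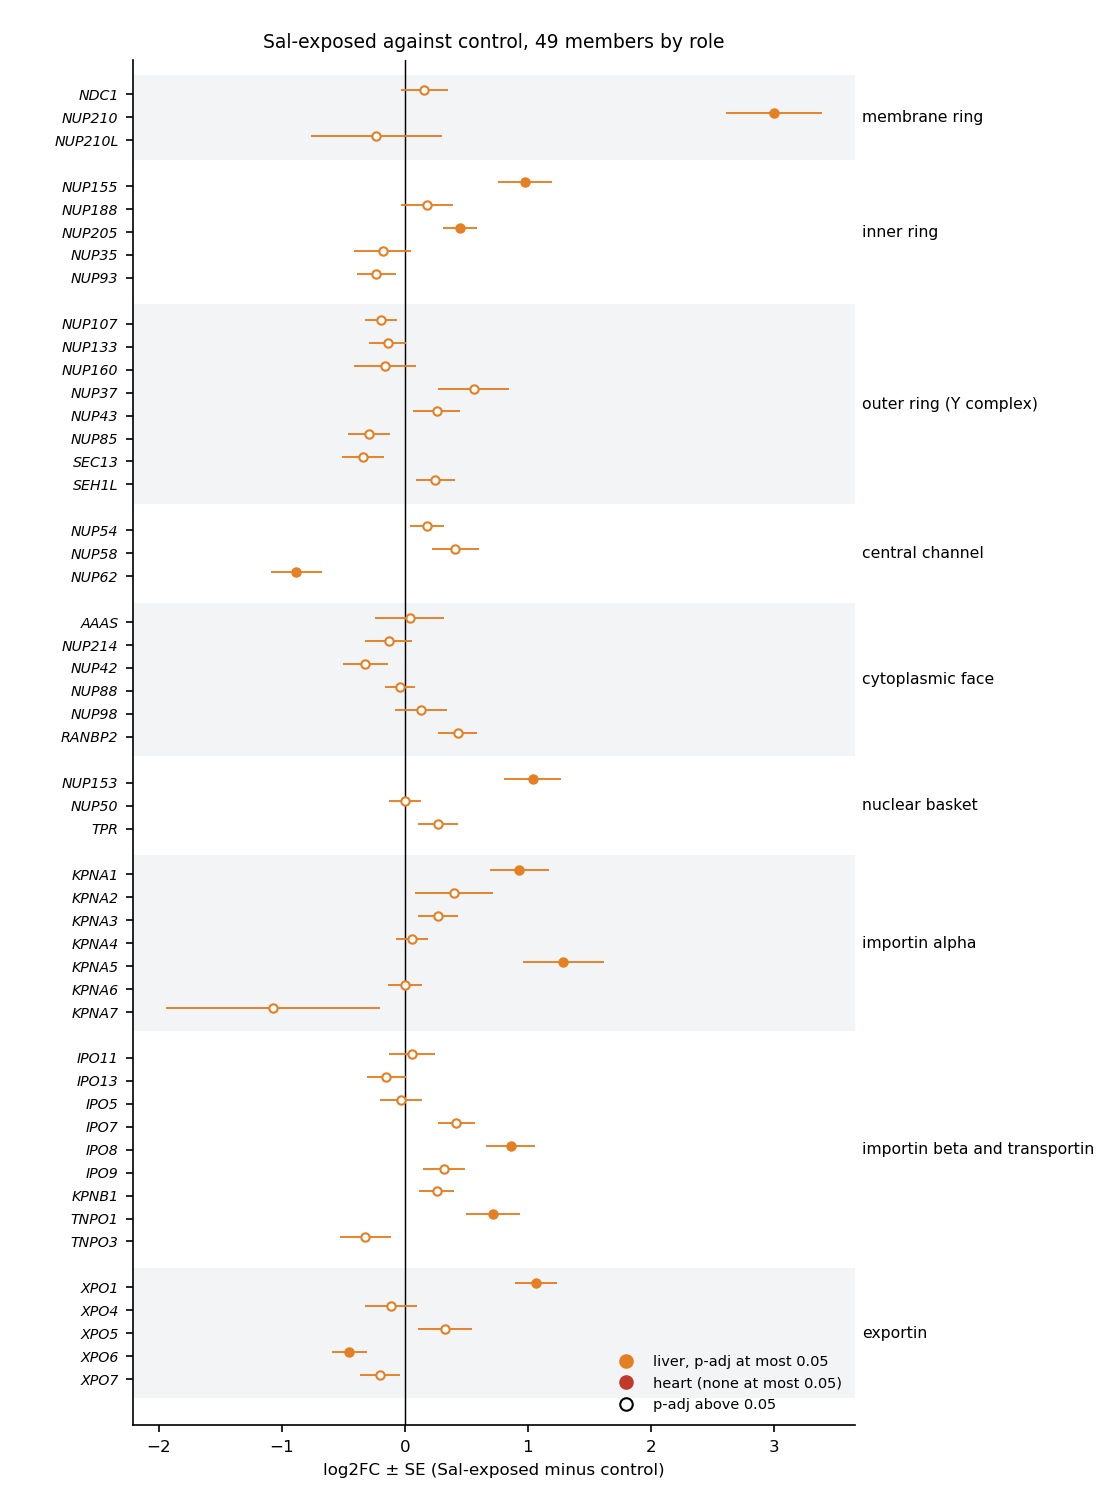
log2FC ± SE of Sal-exposed minus control livers for the 49 genes, grouped by role in the pore or in transport. Filled points have a p-adj of at most 0.05, and *NUP210* lies at 3.00. The heart values, between −0.46 and 0.43, are not drawn, although the key names the heart.

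The largest change was that of *NUP210*, a glycoprotein of the pore membrane. Its gene lies on chromosome 12 of GRCg7b, from 5802480 to 5861495 (ENSGALG00010027980). In mouse, *NUP210* is known to be expressed in a cell-type-dependent way and to be needed for the differentiation of muscle and neural cells in culture. In the control livers it lay at 2.96, 5.16, 5.89, 6.33, 5.80 and 2.42 CPM. In Sal-exposed livers 1 to 6 it lay at 22.3, 10.1, 43.5, 61.8, 45.9 and 51.5 CPM. Every Sal-exposed liver was above every control liver, but Sal-exposed livers 1 and 2 were well below the other 4. The highest value was that of Sal-exposed liver 4, which also had the highest mitochondrial share, and without it the log2FC was 2.82. The means were 39.2 ± 19.3 and 4.76 ± 1.66 CPM (SD, n = 6), and the log2FC was 3.00 (SE 0.39, p-adj = 0.00221), a 7.98-fold difference. By p-value it ranked 8 among all genes tested in the liver. Left out one at a time, no single library ended the call, and the log2FC lay between 2.82 and 3.22. With surrogate variables as covariates the log2FC was 1.79, and the gene passed in DESeq2 but not in edgeR, where no gene of any kind passed.

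In the heart, *NUP210* had almost the same mean in both groups, with 18.1 ± 5.28 CPM in Sal-exposed and 17.9 ± 0.851 CPM in control hearts (SD, n = 6). The Sal-exposed hearts were spread from 12.0 to 27.0 CPM, on both sides of the control hearts at 16.8 to 18.7 CPM. The log2FC was 0.02 (SE 0.16, p-adj = 0.973), with an approximate 95% interval of −0.31 to 0.34. The liver effect of *NUP210* exceeded its heart effect by a log2 value of 3.03 (SE 0.44, p-adj = 0.000316). The mean of the Sal-exposed livers was above that of both heart groups, and that of the control livers below.

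The other membrane nucleoporins did not pass in the liver. *NDC1*, which anchors the pore scaffold in the membrane, lay at 21.8, 25.6 and 37.3 CPM (lowest, median and highest) in the Sal-exposed livers and at 16.8, 23.4 and 33.3 CPM in the control livers, so that the groups overlapped. Its log2FC was 0.16 (SE 0.19, p-adj = 0.588). *NUP210L*, a paralogue of *NUP210* that in mammals is best known from testis, had few counts, with medians of 2.28 CPM in the Sal-exposed and 1.63 CPM in the control livers. Its log2FC of −0.23 (SE 0.53, p-adj = 0.806) had an approximate 95% interval of −1.26 to 0.81, which is wide.

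In the inner ring, the scaffold layer next to the membrane, 2 of 5 genes were upregulated in the liver. *NUP155* (chromosome Z, 12085107 to 12116466), a scaffold protein that is known from humans and mice for its link to atrial fibrillation, lay at 16.2, 22.5 and 37.6 CPM in the Sal-exposed and 8.03, 12.6 and 15.5 CPM in the control livers. All 6 Sal-exposed livers were above all control livers, and the log2FC was 0.98 (SE 0.22, p-adj = 0.0124). *NUP205* (chromosome 1, 47756781 to 47802414), a large scaffold protein, lay at 31.3, 33.6 and 37.0 CPM in the Sal-exposed livers and at 19.6, 22.3 and 29.0 CPM in the controls. The groups did not overlap, but the change was smaller, with a log2FC of 0.45 (SE 0.14, p-adj = 0.0411), and the gene passed in 4 of the 12 fits that left out 1 library, those without Sal-exposed liver 2 or 4 or control liver 2 or 6. In the other fits its p-adj reached at most 0.0899. *NUP188*, *NUP35* and *NUP93*, the remaining inner ring genes, had log2FC values of 0.18, −0.18 and −0.23 and did not pass.

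None of the 8 members placed in the outer ring, the Y-shaped complex that coats the pore on both faces, passed in either tissue after exposure. *AHCTF1*, which works with this ring but lies outside the symbol rule, was upregulated in the liver (0.67, SE 0.16, p-adj = 0.0174). The log2FC of the 8 members in the liver lay between −0.34 and 0.56, with a median of −0.15. *NUP37* had the highest of these values, 0.56 (SE 0.29, p-adj = 0.203), and *SEC13*, which also serves in the coat of secretory vesicles, the lowest, −0.34 (SE 0.17, p-adj = 0.181).

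*NUP62* was the only nucleoporin that was downregulated. It is a repeat-bearing protein that forms the central channel of the pore with *NUP54* and *NUP58*. Its gene lies on chromosome 4, from 1852505 to 1861344. It lay at 14.4, 19.4 and 29.1 CPM in the Sal-exposed and 27.1, 36.5 and 47.0 CPM in the control livers, and 4 of 6 Sal-exposed livers were below all controls. The log2FC was −0.88 (SE 0.21, p-adj = 0.0146). The 2 partners had positive values that did not pass: 0.41 for *NUP58* (SE 0.19, p-adj = 0.146) and 0.18 for *NUP54* (SE 0.14, p-adj = 0.416). In the heart, *NUP62* had a log2FC of 0.26 (SE 0.13, p-adj = 0.323), and the difference between the liver and heart effects was −1.07 (SE 0.24, p-adj = 0.00451).

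On the nuclear face, *NUP153*, a basket protein that binds importins and chromatin, was upregulated in the liver. Its gene lies on chromosome 2, from 61770870 to 61817969. It lay at 17.9, 24.3 and 31.3 CPM in the Sal-exposed and 6.26, 11.2 and 18.8 CPM in the control livers. The highest control lay above the lowest Sal-exposed liver, and the other 5 Sal-exposed livers were above all controls. The log2FC was 1.04 (SE 0.23, p-adj = 0.0119). The other basket genes did not pass: *TPR*, which forms the filaments of the basket, had a log2FC of 0.27 (SE 0.16, p-adj = 0.27), and *NUP50*, a cofactor of import, had 0.00 (SE 0.13, p-adj = 0.993). None of the 6 genes of the cytoplasmic face passed. *RANBP2*, which forms the cytoplasmic filaments and acts as a SUMO ligase, came nearest, at 35.9, 50.1 and 60.4 CPM in the Sal-exposed and 26.8, 37.8 and 42.2 CPM in the control livers. Its log2FC was 0.43 (SE 0.16, p-adj = 0.0777), with 5 of 6 Sal-exposed livers above all controls. *RANBP2* overlaps *LIMS1* in the annotation, *TPR* overlaps *ODR4* and *NUP54* overlaps *PPEF2*, so that their counts are uncertain if strand was not used.

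Among the importins alpha, the adaptors that recognise classical nuclear localisation signals, *KPNA5* and *KPNA1* were upregulated in the liver. *KPNA5* (chromosome 3, 63456678 to 63477067) lay at 4.43, 14.9 and 20 CPM in the Sal-exposed and 3.18, 5.36 and 8.56 CPM in the control livers. The log2FC was 1.29 (SE 0.33, p-adj = 0.0218). *KPNA1* (chromosome 1, 76757718 to 76809304) lay at 7.35, 17.2 and 25.3 CPM in the Sal-exposed and 7.71, 8.41 and 10.7 CPM in the control livers, with a log2FC of 0.93 (SE 0.24, p-adj = 0.022). In both genes 5 Sal-exposed livers were above all controls, and Sal-exposed liver 2 was the exception, in *KPNA1* even below all controls. *KPNA5* no longer passed without Sal-exposed liver 5, Sal-exposed liver 6 or control liver 4, and *KPNA1* no longer passed without Sal-exposed liver 6 or control liver 4. The highest p-adj in these fits were 0.0576 for *KPNA5* and 0.0591 for *KPNA1*.

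Both genes overlap others in the annotation, *KPNA5* with *FAM162B* and *ZUP1* and *KPNA1* with *FBXO40*, and whether reads were counted by strand is not given in the sources used here. They are also paralogues of the same importin alpha subfamily as *KPNA6*, so that their counts can share reads and are uncertain to that extent. *KPNA6* itself had a log2FC of 0.00 (SE 0.14, p-adj = 0.989), and *KPNA3* and *KPNA4*, which also overlap other genes in the annotation, had 0.27 and 0.06. *KPNA2*, whose mammalian counterpart is high in dividing cells, had 0.40 (SE 0.32, p-adj = 0.414). *KPNA7*, in mammals an importin alpha of oocytes and early embryos, had total counts of 59 in the Sal-exposed and 82 in the control livers, and of 3 and 21 in the hearts, where it was left out by the filter on low counts. Its liver log2FC of −1.07 had an SE of 0.87 (p-adj = 0.429).

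Of the 9 importins beta and transportins, which bind cargo directly or through importin alpha, *IPO8* and *TNPO1* were upregulated in the liver. *IPO8* (chromosome 1, 59666953 to 59709555), known in mammals for the import of SMAD and Argonaute proteins, lay at 9.39, 16.3 and 18.5 CPM in the Sal-exposed and 6.47, 7.58 and 9.72 CPM in the control livers. The log2FC was 0.86 (SE 0.20, p-adj = 0.0131), and 5 of 6 Sal-exposed livers were above all controls. *TNPO1* (chromosome Z, 25587927 to 25665158), the importer of several RNA-binding proteins, lay at 10.1, 13 and 19.4 CPM in the Sal-exposed and 5.53, 7.99 and 10.1 CPM in the control livers. The lowest Sal-exposed and the highest control liver both rounded to 10.1 CPM, the Sal-exposed one being the higher, and the log2FC was 0.72 (SE 0.22, p-adj = 0.0389). *TNPO1* passed in 5 of the 12 fits that left out 1 library, those without Sal-exposed liver 2 or 4 or control liver 1, 2 or 6, and its highest p-adj was 0.0918.

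*IPO7*, the closest relative of *IPO8*, had a log2FC of 0.42 (SE 0.15, p-adj = 0.074), just outside the threshold. It lay at 59.8, 92.4 and 111 CPM in the Sal-exposed and 57.6, 64.0 and 67.1 CPM in the control livers, and 5 Sal-exposed livers were above all controls. *KPNB1*, the importin beta that pairs with the importins alpha, had 0.26 (SE 0.14, p-adj = 0.213). *TNPO3*, the importer of SR splicing factors, had −0.32 (SE 0.21, p-adj = 0.326).

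The exportins moved in both directions. *XPO1*, the main exporter of proteins with leucine-rich export signals, lies on chromosome 3, from 2429272 to 2469073. It lay at 73.0, 91.1 and 109 CPM in the Sal-exposed and 31.6, 40.3 and 51.2 CPM in the control livers, without overlap. The log2FC was 1.07 (SE 0.17, p-adj = 0.00393), and no single library ended this call. In the heart, *XPO1* lay at 56.7, 66.4 and 92.2 CPM in the Sal-exposed and 71.4, 79.8 and 98.4 CPM in the control birds, with a log2FC of −0.25 (SE 0.13, p-adj = 0.347). *XPO6* (chromosome 14, 12967469 to 13010131), the exporter of actin, lay at 46.2, 52.7 and 64.6 CPM in the Sal-exposed and 53.8, 74.0 and 79.9 CPM in the control livers. Its log2FC was −0.45 (SE 0.14, p-adj = 0.0442), with 3 of 6 Sal-exposed livers below all controls, and it passed in 2 of the 12 fits that left out 1 library, those without Sal-exposed liver 2 or control liver 1, with a highest p-adj of 0.114. *XPO4*, *XPO5* and *XPO7* had log2FC values of −0.11, 0.33 and −0.20 in the liver and did not pass.

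The 9 upregulated genes were picked from these same livers, so that a place above the controls follows in part from that choice. Sal-exposed liver 2 was the lowest Sal-exposed liver in 8 of the 9 and lay above all control livers in 5, whereas each of the other 5 Sal-exposed livers lay above all control livers in all 9. Among the controls, control liver 2 was the highest in 5 of the 9. Without Sal-exposed liver 2, 13 of the 49 genes (26.5%) passed in the liver, against 20.7% of all genes. The 2 additional genes were *IPO7* and *RANBP2*. The count was lowest, 6 (12.2%), without Sal-exposed liver 6 or without control liver 4, where 6.54% and 8.77% of all genes passed. It was 7 (14.3%) without Sal-exposed liver 5, against 8.08% of all genes. The 6 genes that passed in all 12 of these fits were *NUP210*, *XPO1*, *NUP153*, *NUP155*, *IPO8* and *NUP62*. Surrogate variables had the strongest effect. With them, edgeR called 0 of the 49 genes and 0 of all genes tested. An unadjusted p below 0.05 was found in 9 of the 49 and in 2497 of all 13587 genes, about the same share. DESeq2 with them called 3 members, *NUP210*, *XPO1* and *IPO8*, or 6.12% against 6.57% of all genes.

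The difference between the liver and heart effects was tested as an interaction over the 24 libraries. It passed in 11 of 49 genes, or 22.4%, against 16.2% of all 14632 genes tested. The liver effect was the higher one in 10: *NUP210*, *XPO1*, *IPO8*, *KPNA5*, *NUP153*, *NUP155*, *TNPO1*, *NUP205*, *KPNA1* and *KPNB1*. It was the lower one in *NUP62*. After *NUP210*, the lowest p-adj was that of *XPO1*, with a difference of 1.39 (SE 0.21, p-adj = 0.000457), followed by *IPO8* with 1.03 (SE 0.22, p-adj = 0.00359). *KPNB1* passed here, with a difference of 0.55 (SE 0.19, p-adj = 0.0488), although it passed in neither tissue alone. This call was lost with DESeq2 (p-adj = 0.0599), without mitochondrial genes (p-adj = 0.0678), with offsets on genomic span (p-adj = 0.187) and without Sal-exposed hearts 1 and 4 and control livers 1 and 6 (p-adj = 0.22). *KPNB1* also overlaps an unnamed gene in the annotation. It lay at 50, 61.5 and 74.4 CPM in Sal-exposed and 46.9, 47.3 and 56.3 CPM in control livers, and at 31.5, 39.8 and 50.9 CPM in Sal-exposed and 43.2, 48.5 and 53.0 CPM in control hearts. *KPNB1* passed in 6 of the 24 fits that left out 1 library, *KPNA1* in 7 and *NUP205* in 16. *XPO6* passed in the liver but not in the interaction (−0.44, SE 0.16, p-adj = 0.0666). Without Sal-exposed hearts 1 and 4 and control livers 1 and 6, 10 members passed, or 20.4%, against 16% of all genes. Among them were *NUP210*, *XPO1*, *IPO8*, *KPNA5*, *NUP153*, *NUP155*, *TNPO1* and *NUP62*.

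Control hearts and control livers were compared to show where these genes are expressed without Sal. In this comparison 33 of 48 genes passed, or 68.8%, which equals the 68.8% of all 14121 genes tested. In heart 18 genes were higher (37.5%, against 35.9% of all genes) and 15 were lower (31.2%, against 32.9%). The control hearts and livers did not overlap in 26 genes (54.2%, against 53.1% of all genes). The genes therefore differed between the organs about as often as genes in general.

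**Figure D3:**
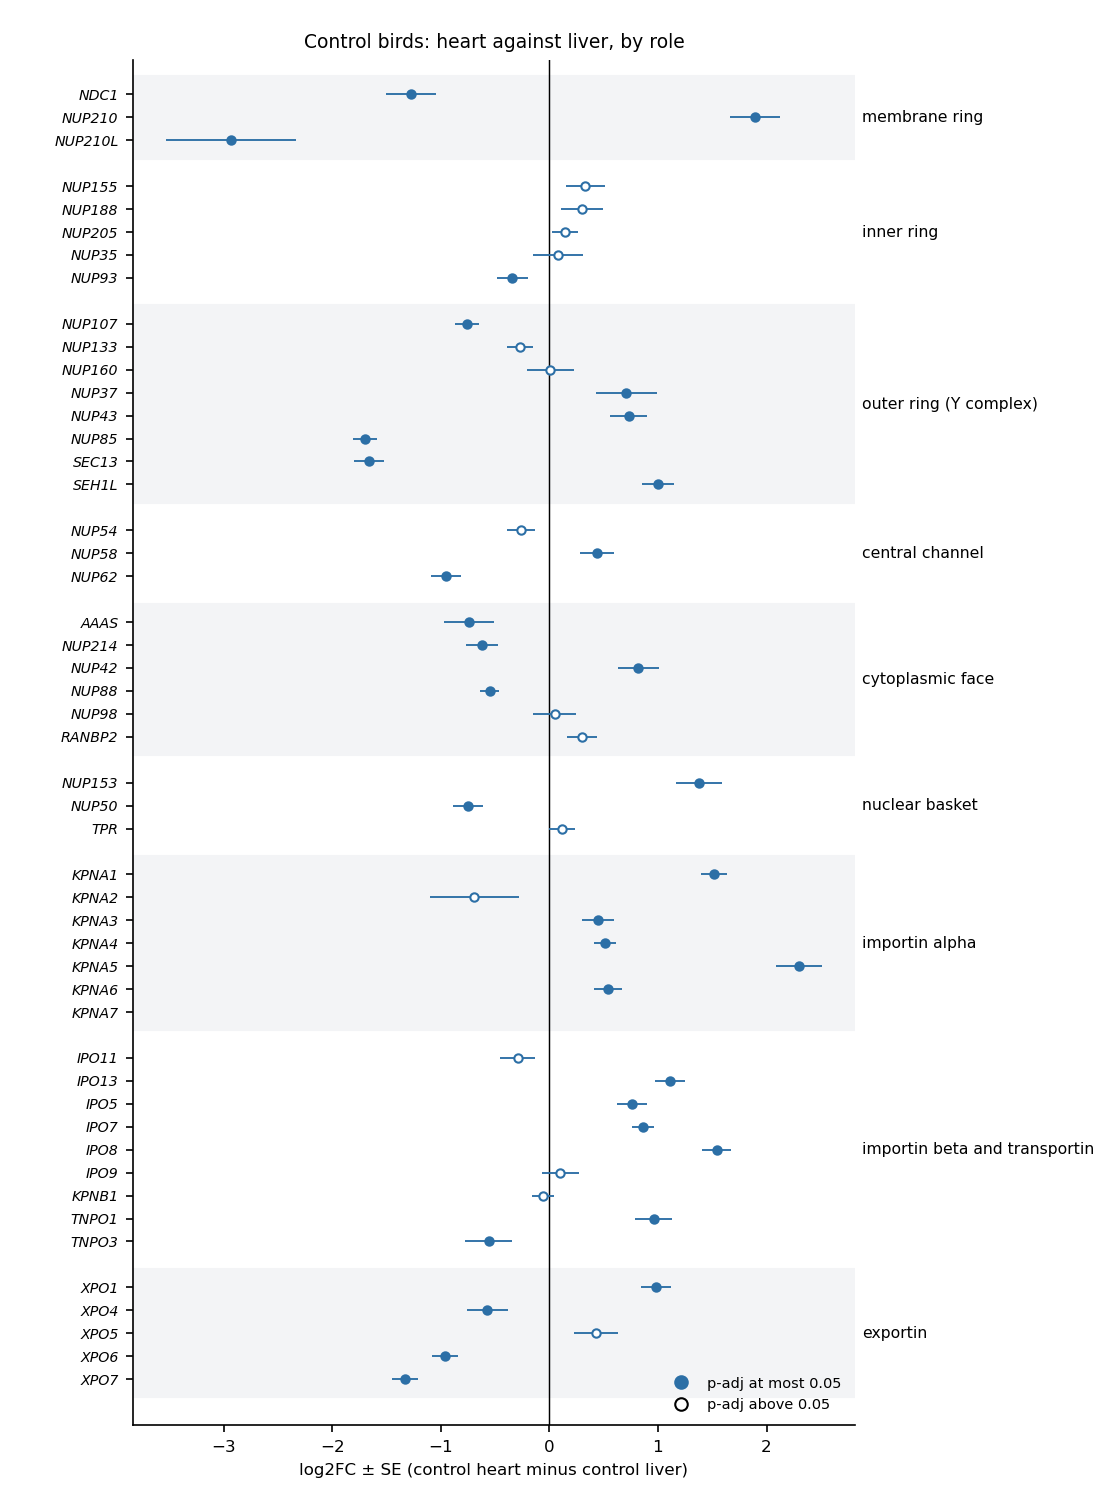
log2FC ± SE of control heart minus control liver for the 48 genes tested, grouped by role; filled points have a p-adj of at most 0.05. *KPNA5* has the highest value, 2.30, and *NUP210L* the lowest, −2.93.

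Importins made up most of the genes that were higher in heart. Of the 6 importins alpha tested, 5 were higher in heart and none was lower, and of the 9 importins beta and transportins 5 were higher and 1 was lower. *KPNA5* lay at 25.2, 27.7 and 29.4 CPM in the control hearts and had a log2FC against the control livers of 2.30 (SE 0.21, p-adj = 3.23e-07). *KPNA1* lay at 23.8, 25.5 and 27.7 CPM in the control hearts, with a log2FC of 1.52 (SE 0.12, p-adj = 5.63e-08). *IPO8* lay at 21.9, 22.9 and 24.3 CPM in the control hearts, with a log2FC of 1.54 (SE 0.13, p-adj = 8.89e-08). The control livers lay below all control hearts in each of these genes. *IPO13*, a receptor that works in both directions, lay at 31, 42.4 and 50.9 CPM in heart and 15.7, 19.2 and 24.2 CPM in liver, a log2FC of 1.11 (SE 0.14, p-adj = 9.43e-06). *IPO13* overlaps *ST3GAL3* and *DPH2* in the annotation, *KPNA5* overlaps *FAM162B* and *ZUP1*, and *KPNA1* overlaps *FBXO40*. The differences between organs in these genes are uncertain if strand was not used. Among the nucleoporins, *NUP210* was higher in heart by 1.89 (SE 0.23, p-adj = 5.07e-06) and *NUP153* by 1.38 (SE 0.21, p-adj = 5.32e-05) on the log2 scale, both without overlap.

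The genes that were lower in heart included parts of the outer ring and 3 exportins. *NUP85* lay at 25.4, 27.3 and 29.3 CPM in the control hearts and 71.8, 88.9 and 102 CPM in the control livers, a log2FC of −1.70 (SE 0.11, p-adj = 1.06e-08). *SEC13* lay at 37.9, 41.6 and 45.9 CPM in heart and 97.0, 134 and 159 CPM in liver, a log2FC of −1.66 (SE 0.14, p-adj = 1.11e-07). Both overlap another gene in the annotation, *SUMO2* and *CAND2* respectively. Other outer ring genes went the other way: *SEH1L* was higher in heart by 1.00, *NUP43* by 0.73 and *NUP37* by 0.71 on the log2 scale. The 8 members placed in this complex thus did not share a direction, with 3 higher, 3 lower and 2 that did not pass. *XPO7*, known in mammals from erythroid maturation, lay at 30.2, 32 and 36.5 CPM in heart and 66.8, 85.6 and 98.3 CPM in liver, a log2FC of −1.33 (SE 0.12, p-adj = 2.86e-07). *XPO6* was lower in heart by a log2FC of −0.96 (SE 0.12, p-adj = 4.66e-06). *NDC1* had −1.27 (SE 0.23, p-adj = 0.000223), and *NUP210L*, with at most 0.467 CPM in a control heart, had −2.93 (SE 0.60, p-adj = 0.000598).

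Side by side, the 9 genes upregulated in the Sal-exposed livers had their lowest group mean in the control livers, below both heart groups. The 2 downregulated genes had their highest group mean there. These genes were picked by their liver values, so that an extreme mean in the control livers follows in part from that choice. Between control hearts and control livers, *NUP155* (0.33, SE 0.18, p-adj = 0.113) and *NUP205* (0.14, SE 0.12, p-adj = 0.332) did not pass. Both comparisons use the same 6 control livers, and no overlap between them was tested. In *NUP210*, *XPO1*, *NUP155* and *NUP205* the Sal-exposed livers had the highest mean of the 4 groups. In *NUP153*, *IPO8*, *KPNA5* and *TNPO1* the control hearts did, and in *KPNA1* the Sal-exposed hearts. For *KPNA5* the means were 14 CPM in Sal-exposed livers, 5.50 CPM in control livers, 24.3 CPM in Sal-exposed hearts and 27.6 CPM in control hearts.

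Genes that work with the pore but lie outside the symbol rule were counted from separate lists. Over all genes tested, 15.4% passed in the liver and 0.185% in the heart. Of 7 genes of the Ran cycle, which gives transport its direction, none passed in the liver or the heart. *RAN* itself lay at 95 ± 21 CPM in the Sal-exposed and 89.2 ± 20.8 CPM in the control livers (SD, n = 6), a log2FC of 0.04 (SE 0.20, p-adj = 0.91). Of 14 further transport factors, 6 passed in the liver and 0 in the heart. *XPOT*, the exportin of tRNA, was upregulated (0.72, SE 0.17, p-adj = 0.014), as was the mRNA export cofactor *NXT2* (0.53, SE 0.16, p-adj = 0.0415). The downregulated genes were *THOC7* (−1.03, SE 0.23), *THOC1* (−0.82, SE 0.19), *THOC5* (−0.76, SE 0.18) and *ALYREF* (−0.58, SE 0.19), with p-adj between 0.0123 and 0.0482, and all 4 are known as subunits of the mRNA export complex TREX. Other subunits on the list did not pass: *THOC2* had 0.39 (SE 0.20, p-adj = 0.195) and *THOC3* had −0.48 (SE 0.21, p-adj = 0.125). Of 12 other genes of the pore and envelope, 3 passed in the liver, all upregulated, and 0 in the heart. These were *SUN1*, which links the envelope to the cytoskeleton (0.78, SE 0.17), *TMPO*, a lamin-binding protein (0.88, SE 0.20), and *AHCTF1*, which recruits the outer ring to chromatin (0.67, SE 0.16).

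The 49 genes lie on 21 chromosomes, and the 11 that passed in the liver on 7. In the liver, log2FC varied with the length of the gene on the chromosome over all genes tested. The median log2FC was −0.23 for genes under 10 kb, 0.03 from 10 to 30 kb, 0.23 from 30 to 100 kb and 0.28 over 100 kb, and the corresponding medians in the heart lay between −0.05 and 0. Of the 9 upregulated members, 8 spanned 30 to 100 kb, a range in which 13.9% of all genes were upregulated and which held 23 of the 49 members. *KPNA5*, at 20.4 kb, was the exception. *NUP62*, the most strongly downregulated of the genes that passed, spanned 8.84 kb. With offsets for this trend in each library, 9 members passed in the liver (18.4%, against 13.5% of all genes), 7 of them upregulated. *NUP205* and *TNPO1* no longer passed, and the log2FC of *NUP210* was 2.68.

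**Figure D4:**
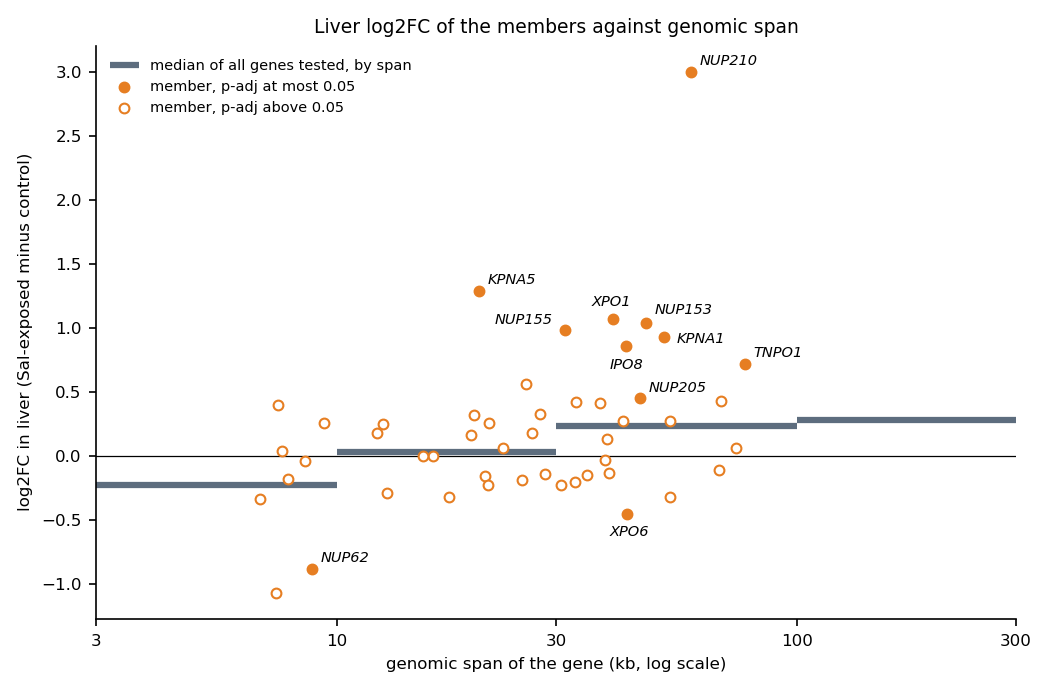
Liver log2FC (Sal-exposed minus control) of the 49 genes against the genomic span of each gene in kb on a log axis; filled points passed the test, and grey bars are medians of all genes tested in 4 ranges of span. The grey bars rise from −0.23 to 0.28, and 8 of the 9 upregulated members lie between 30 and 100 kb.

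Markers of cell types were also compared between the livers, since in whole tissue fewer cells of a type and less RNA per cell cannot be told apart. Over all genes tested in the liver, 7.57% were upregulated and 7.84% downregulated. Of 14 proliferation genes, *KIF11*, a mitotic motor, was upregulated (1.67, SE 0.51, p-adj = 0.0398). The summed level of the list was 288 to 516 CPM in the Sal-exposed and 193 to 510 CPM in the control livers. Of 14 leukocyte genes, *PTPRC* was upregulated (0.83, SE 0.24, p-adj = 0.031) and *MARCO* was downregulated (−0.66, SE 0.19, p-adj = 0.031), with sums of 2740 to 4100 and 3120 to 4960 CPM. Of 6 erythrocyte genes 3 were downregulated, with sums of 74.7 to 243 and 185 to 667 CPM. Of 9 genes of fibroblasts and stellate cells 3 were downregulated, *THY1*, *COL1A1* and *COL1A2*, with sums of 215 to 690 and 485 to 942 CPM. Of 13 rows of hepatocyte genes 2 were downregulated, *APOH* and *TF*, with sums of 121000 to 206000 and 146000 to 314000 CPM. None of the 8 endothelial genes passed, and their sums were 277 to 502 and 311 to 408 CPM. Of the 9 cardiomyocyte genes tested in the liver 1, *TNNC1*, was downregulated, and the list summed to 8.39 to 46.4 and 47.5 to 306 CPM, against at least 28200 CPM in each heart. No marker of these lists was at 0 in all libraries of a liver group. By sign alone, 12 of 14 proliferation genes were higher in the Sal-exposed livers, with a median log2FC of 0.57. Higher genes numbered 8 of 14 for leukocytes (median 0.04), 4 of 8 for endothelium (0.01) and 3 of 9 for fibroblasts and stellate cells (−0.46). None was higher among the 13 hepatocyte rows (−0.56), 6 erythrocyte genes (−0.98) and 9 cardiomyocyte genes (−1.94). In the heart, 3 hepatocyte genes passed, all higher in the Sal-exposed hearts. These were *ALB* (2.30, SE 0.33, p-adj = 0.0292), *AHSG* (2.41, SE 0.42, p-adj = 0.037) and *APOH* (2.63, SE 0.47, p-adj = 0.0468). Of the 12 hepatocyte genes tested in the heart, 10 had a positive log2FC, and the median was 1.78. *APOA1* (−0.41) and *TF* (−0.42) had negative values and did not pass. The hepatocyte list summed to 305 to 545 CPM in the Sal-exposed and 262 to 792 CPM in the control hearts. *APOA1* alone had means of 340 CPM in the Sal-exposed and 453 CPM in the control hearts, so that the sums mostly follow this gene. No marker of the other lists passed in the heart, and the cause was not tested. The part of these cell types in the liver results was not tested. For gene length only the fit with offsets on genomic span was run, and its part as a cause was not tested.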

How the data were processed

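RNA-seq of 24 chicken heart and liver libraries was analysed, 6 Sal-exposed and 6 control for each tissue, and samples were grouped by their titles. According to the methods, the authors used fastp for trimming, STAR for mapping to GRCg7b with the Ensembl annotation, and RSEM for quantification. The versions, and whether counting used strand, are not given in the sources used here. The deposited table holds raw whole-number counts for 15051 genes, and 11779 of these carry a symbol. Of its 36 count columns, 24 were assigned by library name and the other 12 were not used. The authors' tables of their own DESeq2 comparisons (mean, log2 fold change, standard error, statistic, p-value and adjusted p-value) were used for gene positions only. Total counts were 31.4 to 44.5 M per library, and the precision of each value is given by the spread between 6 libraries.

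The main fits used edgeR 4.0.16 (R 4.3.3), with filterByExpr (minimum count 10, minimum total 15), TMM scaling, and quasi-likelihood tests with Benjamini-Hochberg adjustment over all genes tested. Heart, liver, and control heart against control liver were each fitted on their 12 libraries, and the interaction on 24. SE is the absolute log2FC divided by the square root of F, and intervals given as 95% are 1.96 SE on either side. With 6 libraries per group these intervals are approximate and too narrow. That of *SEC13* in the liver, −0.67 to −0.01, leaves out 0 although the quasi-likelihood test gave an unadjusted p of 0.061. Printed CPM use TMM factors over 24 libraries, whereas each test uses the factors of its own fit. The fits were tested on simulated data. No library was a copy of another: over 60 pairs within groups, chi-square divided by its degrees of freedom was at least 12.9.

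Alternatives were DESeq2 1.42.0, upper-quartile scaling, all genes with a count kept, the 16 mitochondrial genes left out, the replicate number as a block, surrogate variables from sva 3.50.0 (3 in heart, 4 in liver), all libraries in one fit, an added log2FC cut-off of 1, and each library left out. In the interaction the block was treatment and replicate number together. Offsets on genomic span, surrogate variables in DESeq2, DESeq2 with the log2FC cut-off, and the libraries that stood apart left out together were chosen after seeing the data. The members, the lists and the rule for naming genes were chosen with earlier results of these data known. By that rule values were given for NUP210, the members that passed after exposure or in the interaction, and the 6 largest differences between organs in each direction. NUP58, SEC13 and members near the threshold were named after their values were seen. Levels per coding length were not computed, because coding lengths were not at hand.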

Additional observations from a re-analysis of the deposited data

Results flagged for a closer look

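The effect of Sal differed between liver and heart in 11 members by edgeR's interaction test (p-adj of at most 0.05, n = 6 per group). The liver log2FC minus the heart log2FC was 3.03 for *NUP210*, 1.52 for *KPNA5*, 1.39 for *XPO1*, 1.14 for *NUP153*, 1.12 for *NUP155*, 1.03 for *IPO8*, 0.91 for *TNPO1*, 0.81 for *KPNA1*, 0.55 for *NUP205* and 0.55 for *KPNB1*. For *NUP62* it was −1.07.

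A single library lay far from the other 5 of its group in 2 of the 76 groups of 6 libraries examined (19 members in 4 groups), and chance alone is expected to give about 1 in 20 groups. *NUP155* was at 21.7 CPM in Sal-exposed heart 3, and the next highest Sal-exposed heart was at 14.3 CPM, a gap of 0.667 of the whole range of the group. *NUP58* was at 14 CPM in control heart 1, and the next highest control heart was at 10.4 CPM, a gap of 0.742 of the range. The critical ratio for 6 values is 0.625.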

How the results depend on the processing

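No value named for a gene changed direction while past the threshold under the alternatives run. In the liver, the number of members that passed (11) was 12 with DESeq2 (24.5%, against 22% of all genes). It was 10 with upper-quartile scaling (20.4% against 15.8%) and 10 without the filter on low counts (20.4% against 13.1%). It was 11 without mitochondrial genes (22.4% against 15.4%) and 14 with all 24 libraries in one fit (28.6% against 25%). With offsets on genomic span it was 9 (18.4% against 13.5%), and without control livers 1 and 6 it was 10 (20.4% against 12%). It was 0 with surrogate variables in edgeR, where 0 of all genes passed. There 9 of 49 members and 2497 of all 13587 genes had an unadjusted p below 0.05, about the same share. With them in DESeq2 it was 3 (6.12%, against 6.57% of all genes). The cause was not tested. With each library left out the number lay between 6 and 13, and the share of all genes between 6.54% and 20.7%. Both cut-offs left 4 members in edgeR and 4 in DESeq2 in the liver, 12 between the organs and 7 in the interaction. The share of all genes at both cut-offs was computed only for the liver in edgeR, 7.01%. In the heart, DESeq2 called 1 member, *NUP58* (2.08%, against 4.85% of all genes), and with surrogate variables 2, *NUP58* and *SEC13* (4.17% against 14.5%); all fits in edgeR called 0. Between the organs the count (33) lay between 29 and 36, apart from the log2FC cut-off, and the share of all genes between 65.5% and 72.8%. In the interaction the count (11) lay between 8 and 13, again apart from that cut-off, and the share of all genes between 11.7% and 21.4%. With the replicate number as a block, 7 of the 11 members passed in the liver, which is 14.3% of the 49 against 7.43% of all genes. In the heart 0 members and 0 of all genes passed, and between the organs 31 members did (64.6% against 65.5%). In the interaction the block was treatment and number together, so that the same-numbered heart and liver of a treatment shared a block. There 12 members passed (24.5%, against 17.4% of all genes), and *KPNB1* no longer did (p-adj = 0.0797). Apart from this alternative, the numbers were not taken to pair the samples. Deviations of same-numbered Sal-exposed and control livers correlated between −0.07 and 0.17. Those of hearts correlated between −0.21 and 0.07, and those of control hearts and livers between −0.04 and 0.23. Between Sal-exposed hearts and livers the deviations correlated between −0.11 and 0.45, above 0.1 in 5 of 6 numbers, and 5 of 6 matched their own number best. This is a hint from the data, and the main interaction and organ fits treat libraries as independent. Across members named, 762 values under an alternative kept their side of the threshold, 112 lost the call and 3 gained it. *KPNA7* had few counts in every group, and 6 birds per group, 1 dose and 1 time point limit all comparisons.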
